A study of Mus musculus with 4 samples.

Results

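The 2 stretches of the mouse genome that carry the widest acetylated peaks of salivary gland progenitor cells are described here, the cluster of the forkhead genes Foxq1, Foxf2 and Foxc1 and the locus of the homeobox gene Meis1. The windows are chromosome 13:31500000-32100000 and chromosome 11:18600000-19100000 on the mm9 build, and a peak belongs to a window by its midpoint. They were chosen by peak width in these same data: the widest H3K27ac peak of the list (11049 bases) lies in the forkhead window and the next in order (8480 bases) in the Meis1 window, whereas the widest peak outside them measured 7423 bases. Widths and acetylated bases are therefore given as a description, without a test. The members are 182 peaks of 187887 in both lists, made up of 176 of 183757 H3K27ac peaks and 6 of 4130 p63 peaks. Of these, 76 H3K27ac and 5 p63 peaks lie in the forkhead window of 600 kb, and 100 H3K27ac and 1 p63 peak in the Meis1 window of 500 kb.

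All 4 libraries came from primary epithelial progenitor cells of the salivary gland of adult mice aged 12 weeks that are wild type for p63, with no treatment named in the labels. They are a ChIP with the p63 antibody 4A4, a ChIP for H3K27ac, and an input without antibody for each. There was 1 library of each kind, so no value below has a replicate, and the labels do not say how many animals a library pools. The files list peak positions only, so depth is unknown, peak strength was not measured, and the identity of the cells could not be checked against marker expression. A peak pools all cells of a culture, so a mark in part of the cells and a weaker mark in all of them cannot be told apart.

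Acetylation of lysine 27 of histone H3 marks active promoters and enhancers, and long unbroken stretches of it are known from genes that define a cell's identity. p63 is the p53-family transcription factor that maintains basal epithelial progenitors, and it binds mostly at enhancers. Forkhead proteins bind DNA through a winged-helix domain. Foxc1 acts in mesenchyme, eye and skin appendage development, Foxf2 in mesenchyme such as that of the palate and gut, and Foxq1 in hair and stomach epithelium. Meis1 is a TALE homeodomain protein that binds DNA together with Pbx and Hox partners and is best known from blood stem cells. In the RefSeq gene table of GRCm38.p6, Foxq1, Foxf2 and Foxc1 follow each other with no other protein-coding gene between them, in the direction of rising coordinates, and Gmds comes after Foxc1. The neighbours of Meis1 in that table are Etaa1 and Spred2.

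On mm9 only rounded positions of 2 of the 4 genes were at hand: Foxc1 at about 31.898 Mb, and Meis1 from about 18.78 to 18.92 Mb with its 5′ end at the higher coordinate. No mm9 position was used for Foxq1 or Foxf2, so peaks below Foxc1 are given by position and assigned to neither gene. Sequence of the peaks themselves was not used here, because no mm9 genome was at hand. RefSeq promoters of GRCm38.p6 (250 bases before to 50 after the start, on the gene's strand) matched 3 of the 4 genes by symbol. Those of Foxc1 and Meis1 are shown because by the rounded positions the 2 widest peaks lie at or close to these gene starts. Capitals mark CpG dinucleotides, and each sequence runs 5′ to 3′.
Foxc1 (chromosome 13, plus strand): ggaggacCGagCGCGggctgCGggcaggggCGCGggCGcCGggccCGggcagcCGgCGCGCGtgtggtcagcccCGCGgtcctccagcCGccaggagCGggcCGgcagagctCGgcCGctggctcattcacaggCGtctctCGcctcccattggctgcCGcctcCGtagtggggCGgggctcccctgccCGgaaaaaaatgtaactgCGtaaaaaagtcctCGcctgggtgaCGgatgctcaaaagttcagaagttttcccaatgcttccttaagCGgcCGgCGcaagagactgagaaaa
Meis1 (chromosome 11, minus strand): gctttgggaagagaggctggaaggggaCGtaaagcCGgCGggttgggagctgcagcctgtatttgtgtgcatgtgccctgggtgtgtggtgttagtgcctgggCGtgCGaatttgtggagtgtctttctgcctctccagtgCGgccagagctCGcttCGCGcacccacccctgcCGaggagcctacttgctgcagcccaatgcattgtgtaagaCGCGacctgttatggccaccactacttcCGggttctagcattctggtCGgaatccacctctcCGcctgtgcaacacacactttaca

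The Foxc1 promoter held 32 CpGs and 67.3% G and C, the Foxf2 promoter 27 CpGs and 71.3%, and the Meis1 promoter 15 CpGs and 58.3%. The median of 32851 promoters in the table was 7 CpGs and 52.7%. Foxc1 had more CpGs than 90.5% of these promoters and Meis1 more than 65.4%, so the Foxc1 promoter is the more CpG-rich of the pair. The motif CATGNNNNNNCATG, a strict form of the p53-family site that reads the same on both strands, was in none of the 3 promoters and in 0.712% of all. Its loose form CNNGNNNNNNCNNG, which includes every strict match, was found at 2 positions in Foxc1, 1 in Foxf2 and 0 in Meis1. It occurs in 70.2% of all promoters, so its presence distinguishes little.

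The loci differed in how acetylation was spread. With peaks joined across gaps of up to 1000 bases, the block at Foxc1 held 48.1% of the acetylated bases of its window, and the block at the Meis1 start 28.6%, with further large blocks around it. H3K27ac peaks covered 32840 bases (5.47%) of the forkhead window and 54708 bases (10.9%) of the Meis1 window, against 1.87% of the span of all chromosomes between their first and last peak. The forkhead window carried 127 peaks per Mb (exact Poisson 95% interval 99.8 to 159) and the Meis1 window 200 per Mb (interval 163 to 243), beside 71.6 per Mb in the whole list. These intervals cover counting error only and treat peaks as independent, which neighbouring peaks are not. The difference in number depended on short gaps: with peaks joined as above, 52 forkhead and 47 Meis1 peaks were left, or 86.7 and 94 per Mb, beside 54.2 per Mb in the whole list. Among 4387 genome tiles of 600 kb, 683 (15.6%) held more H3K27ac peaks than the forkhead window and 238 (5.43%) more acetylated bases. Among 5266 tiles of 500 kb, 187 (3.55%) held more peaks than the Meis1 window and 23 (0.437%) more acetylated bases. The Meis1 window thus stood nearer the top of its scale on both measures, although the widest peak of the list is in the other window.

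**Figure D1:**
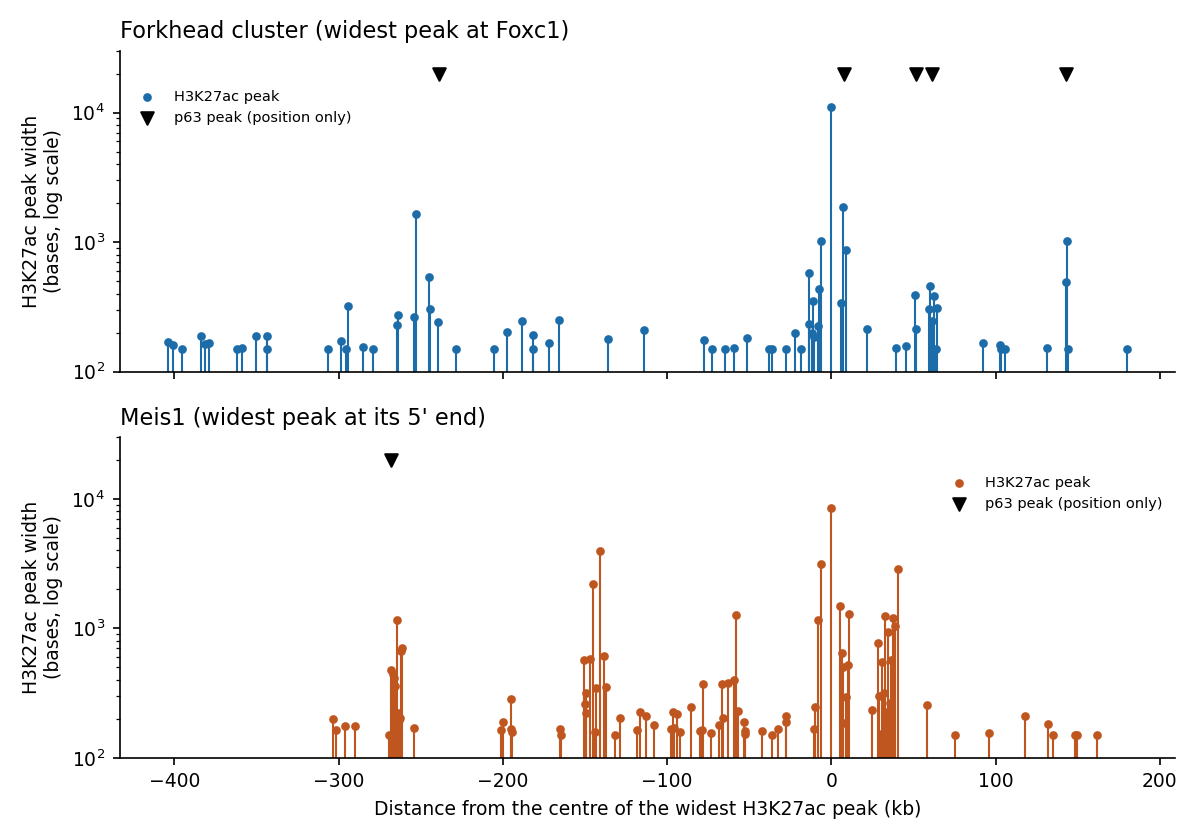
Width of every H3K27ac peak of the forkhead window (upper panel, 76 peaks) and the Meis1 window (lower panel, 100 peaks), in bases on a log axis, against distance in kb from the centre of the window's widest peak. Triangles give the position of the 5 and 1 p63 peaks. At the forkhead genes 1 peak of 11049 bases stands above all others, while the Meis1 window has wide peaks in several groups.

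The widest peak made up 33.6% of all acetylated bases of the forkhead window and 15.5% of those of the Meis1 window. At the forkhead genes it was 5.90 times as wide as the next (1874 bases), and at Meis1 2.13 times (3987 bases). Without the widest peaks, 3.63% of the forkhead window and 9.25% of the Meis1 window were covered, so the greater part of both windows' acetylated bases lay outside these peaks. Peaks of 1000 bases or more numbered 5 of 76 in the forkhead window and 13 of 100 in the Meis1 window, beside 1.91% of the whole list, and those of 2000 bases or more 1 and 5, beside 0.273% of the list. These counts belong to the measure that chose the windows. The 5 widest forkhead peaks together held 50.6% of acetylated bases. At Meis1 it took 11 peaks to reach 50% of the bases.

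**Figure D2:**
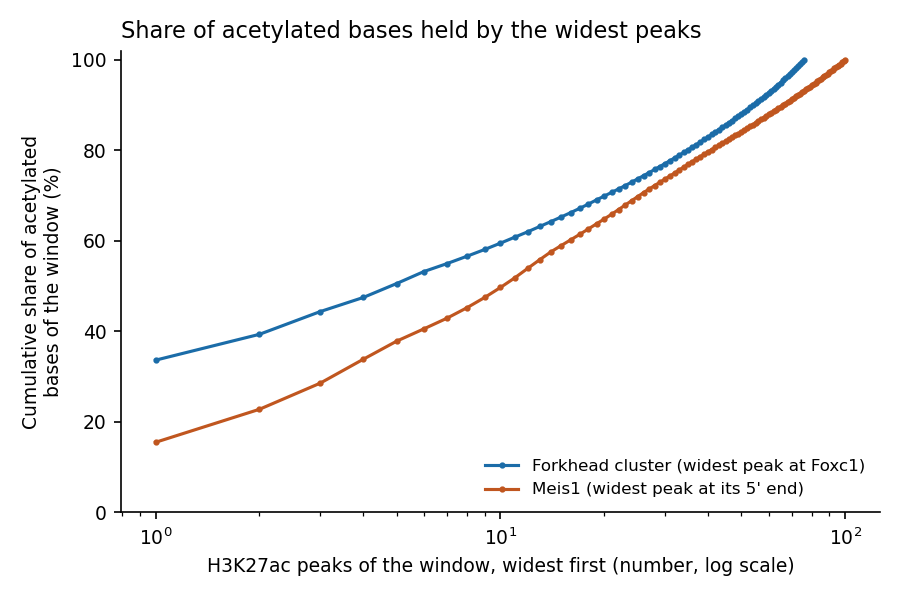
Cumulative share of acetylated bases (%) against the number of H3K27ac peaks, taken from the widest down on a log axis, for both windows. The forkhead line starts at 33.6% with 1 peak and lies above the Meis1 line, which starts at 15.5%.

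Over all members, the median width and median gap in the forkhead window were close to those of the whole list, while Meis1 peaks were wider and closer together. Median width was 186 bases (quartiles 150 and 281) in the forkhead window and 224 bases (quartiles 167 and 484) in the Meis1 window, against 191 (quartiles 155 and 260) over all peaks. The smallest width that the list contains, 150 bases, was found for 20 forkhead peaks (26.3%) and 9 Meis1 peaks (9%), against 21.7% of all peaks. The gap between neighbouring peaks had a median of 5014 bases in the forkhead window and 790 bases in the Meis1 window, against 5122 in the list. Gaps under 500 bases made up 18 of 75 in the former and 42 of 99 in the latter (24% and 42.4%), against 17.3% in the list, so short gaps were more frequent in both windows. In the deposited list the Foxc1 peak is in row 5 and the Meis1 peak in row 53. In all, 36 of the 76 forkhead peaks and 74 of the 100 Meis1 peaks stand in the first 50% of rows. No source used here says what orders the rows.

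At Foxc1 the widest peak, chromosome 13:31898652-31909700, formed the core of a compact block. Below it lay a peak of 1024 bases at 31897334-31898357, separated by a gap of 294 bases, and the rounded Foxc1 position falls in the kb that holds this gap and the facing edges of both peaks. Above it followed peaks of 336 bases (31909838-31910173), 1874 bases (31910385-31912258) and 871 bases (31912435-31913305), separated by gaps of 137, 211 and 176 bases. Peaks joined across gaps of up to 1000 bases gave a cluster of 7 peaks at 31895773-31913305, with 15809 acetylated bases in a span of 17533 (90.2%). It ranked 14 of 139150 such clusters and lone peaks by acetylated bases. The rank depended on the joining distance: across gaps of up to 3000 bases it was 32 of 111551, and across 10000 bases 109 of 62921. Acetylation was densest next to the widest peak: it covered 37.3% of the 5 kb below and 61.6% of the 5 kb above the widest peak, then 11.4% and 1.43% from 5 to 20 kb, and 2.1% and 3.05% from 20 to 50 kb. From 50 to 100 kb it covered 1.25% below and 4.67% above, so on the upper side coverage did not fall steadily with distance.

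Outside the widest peak, acetylation covered 3.3% of the forkhead window below it and 4.55% above it, both more than the 1.87% of the whole span. Clusters of at least 1000 acetylated bases numbered 4 in all, and the 3 besides Foxc1 held 1651 to 1913 bases each. One of them, chromosome 13:31649672-31651965, lay 253 kb below the centre of the Foxc1 peak and included a peak of 1648 bases. The others lay above it, at 31963733-31968876 (6 peaks, the widest 460 bases) and at 32046516-32048518 (3 peaks, the widest 1013 bases). Above the p63 peak nearest to the lowest cluster, the 225 kb at 31665313-31890143 held 20 peaks of 150 to 250 bases that covered 1.56%. From the start of the window to the first cluster, 150 kb held 19 peaks of 150 to 322 bases that covered 2.29%. By the order of the genes both Foxq1 and Foxf2 lie on that lower side of Foxc1. There 2 of 52 peaks reached 1000 bases (1648 and 1024), beside 1.91% of the whole list. The peak of 1024 bases is part of the Foxc1 block.

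Meis1 had its widest peak, chromosome 11:18912033-18920512, at the rounded 5′ end of the gene, within a block much like that of Foxc1. A peak of 3155 bases (18908652-18911806) lay 226 bases below it, inside the gene, and one of 1489 bases (18920597-18922085) 84 bases above it. Joined across gaps of up to 1000 bases, 7 peaks at 18907309-18923839 held 15620 acetylated bases in a span of 16531 (94.5%), rank 15 of 139150, next to the Foxc1 cluster in rank 14. At this joining distance the pair of blocks therefore differed by 189 bases of acetylation, whereas their widest peaks differed by 2569. Which block held more depended on the joining distance. Across gaps of up to 3000 bases the Foxc1 block held 17351 acetylated bases and the Meis1 block 18139. Across 10000 bases they held 18150 and 18139, ranks 109 and 110 of 62921, and across 20000 bases 21945 and 46723.

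Unlike Foxc1, Meis1 had further dense blocks on either side of the gene start. The next in acetylated bases, chromosome 11:18943999-18958535, lay 35.0 kb upstream of the widest peak (centre to centre) and held 13 peaks with 10463 bases, rank 53 in the list. Its widest peak had 2889 bases (18955647-18958535). Another, 18769302-18779073, lay 142 kb away at the rounded 3′ end and held 7 peaks with 8227 bases, rank 95, among them peaks of 3987 bases (18773580-18777566) and 2191 bases (18769976-18772166). A block at the low end of the window, 18647035-18655476, held 11 peaks with 4989 bases, rank 304. In all, 7 clusters of at least 1000 acetylated bases held 48 of the 100 Meis1 peaks and 81.6% of acetylated bases, against 4 clusters with 18 of 76 peaks and 64.6% of the bases in the forkhead window.

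Inside the gene, Meis1 was covered by many small peaks. Between the rounded gene ends 36 peaks covered 14.8%, and without the 15 kb at the 5′ end 31 peaks covered 6.06%. These 31 had a median width of 188 bases, near the 191 of the whole list. Of them, 1 reached 1000 bases (1267 bases, 18857854-18859120), beside 1.91% of the list. Upstream of the last block acetylation became sparse: from 18958536 to the end of the window, 141 kb held 9 peaks of 150 to 255 bases that covered 1.1%. With the blocks of each side included, the 2 sides of the gene were alike in coverage. Downstream of the gene, 180 kb held 34 peaks that covered 9.30%, and upstream of it 180 kb held 30 peaks that covered 9.54%.

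**Figure D3:**
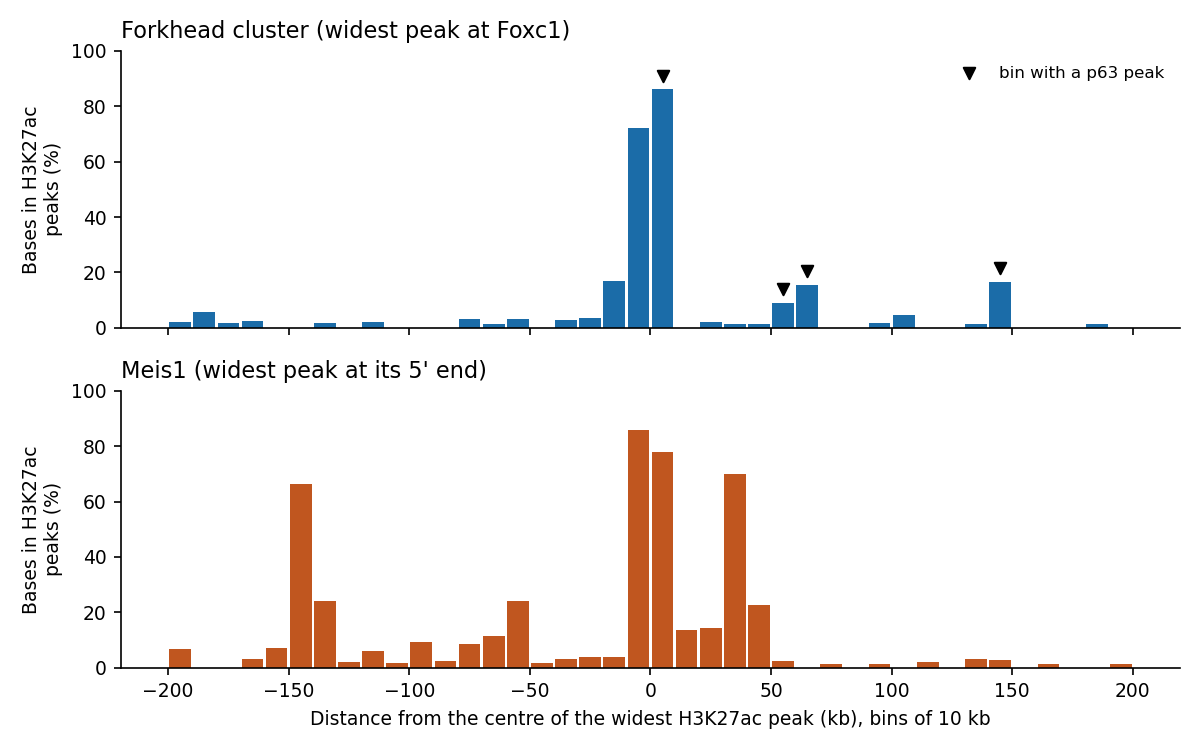
Share of bases inside H3K27ac peaks (%, bars) in bins of 10 kb within 200 kb of the centre of the widest peak, for the forkhead cluster (upper panel) and Meis1 (lower panel), with triangles on bins that hold a p63 peak. More than 10% was covered in 5 of 40 bins at the forkhead cluster and in 10 of 40 at Meis1. In this range p63 is marked only in the upper panel. The sole Meis1 p63 peak (-268.3 kb) and the lowest forkhead p63 peak (-239.0 kb) lie outside the range shown.

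The numbers of p63 peaks ran the other way: 5 peaks lay in the forkhead window and 1 in the Meis1 window. That is 8.33 per Mb (exact Poisson 95% interval 2.71 to 19.4) and 2 per Mb (interval 0.0506 to 11.1), beside 1.61 per Mb over all chromosomes. The intervals overlap, but overlap does not decide whether the rates differ. Both intervals cover counting error only and treat peaks as independent, so with counts this small no difference between the loci is claimed. No test was made, since the p63 peaks nearest to both widest peaks were known when the windows were proposed. Of 4387 tiles of 600 kb, 62 (1.41%) held more than 5 p63 peaks and 54.3% held none. Of 5266 tiles of 500 kb, 1021 (19.4%) held more than 1 and 59.5% held none. Relative to acetylation there were 6.58 p63 peaks per 100 H3K27ac peaks in the forkhead window, 1 in the Meis1 window and 2.25 in the lists as a whole.

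All 6 p63 peaks lay within 1000 bases of an H3K27ac peak, as did 68.4% of all p63 peaks, and 3 shared at least 1 base with one, beside 34.8% of all p63 peaks. With 6 peaks the Wilson 95% interval runs from 61.0 to 100% for the former share and from 18.8 to 81.2% for the latter. Each interval includes the share in the whole list. The intervals treat the 6 peaks as independent, which neighbouring peaks of a single library are not. The windows were also chosen by their H3K27ac peaks, so these shares are a description only. Seen from the acetylated side, 3 of 76 forkhead and 0 of 100 Meis1 peaks shared a base with p63, beside 0.839% of all H3K27ac peaks. Both of these counts are small.

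The p63 peak nearest to the Foxc1 start, chromosome 13:31912007-31912184 (178 bases), lay whole inside the 1874-base H3K27ac peak at the upper end of the Foxc1 block, 2306 bases past the edge of the widest peak. Its upper edge was 74 bases from the end of that peak, and the next H3K27ac peak began 250 bases further on. Within 5 kb of its edges 5775 bases were acetylated, a value that 103 of 4130 p63 peaks exceeded (median 642, quartiles 206 and 1593). Part of these bases belongs to the widest peak, by which the window was chosen, so the value is no separate trait of this p63 peak. This was the only p63 peak of either window that touched a peak of more than 250 bases.

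A pair of p63 peaks 9.12 kb apart lay 51.8 and 61.1 kb above the centre of the Foxc1 peak. The first, 31955789-31956077, was the widest p63 peak of both windows with 289 bases, wider than 94.2% of the list, and shared 89 bases with an H3K27ac peak of 212 bases. The other, 31965197-31965447 (251 bases), shared 5 bases with an H3K27ac peak of 245 bases and had another of 460 bases 458 bases below it. The pair thus sat at the edges of small H3K27ac peaks, with 605 and 1858 acetylated bases within 5 kb, unlike the p63 peak of the Foxc1 block.

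Both remaining forkhead p63 peaks shared no base with H3K27ac. The peak at 32047127-32047274 (148 bases) lay in a gap, with an H3K27ac peak of 488 bases 123 bases below and one of 1013 bases 26 bases above. The peak at 31665111-31665312 (202 bases) had an H3K27ac peak of 242 bases 494 bases below it and none above for 10084 bases. It is the p63 peak closest to the low cluster with the 1648-base peak, 13.1 kb from its edge.

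Near Meis1 the sole p63 peak, chromosome 11:18647870-18647989, was 264 kb from the widest peak, at the far downstream end of the window. It was 120 bases wide, the smallest width in the p63 list. It lay in a gap at the low edge of the acetylated block at 18647035-18655476, 685 bases above a peak of 150 bases and 134 bases below one of 478, with 3416 acetylated bases within 5 kb. The next p63 peak in the other direction, 19373557-19373676, also 120 bases wide, was outside the window and 453 kb from the widest peak. The 726 kb between the pair held 108 H3K27ac peaks with 56127 acetylated bases and all of the Meis1 gene. Of 4110 intervals between neighbouring p63 peaks (median 234 kb), 955 (23.2%) were longer and 48 held more acetylated bases. The acetylated bases of this interval include the widest peak, by which the window was chosen.

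**Figure D4:**
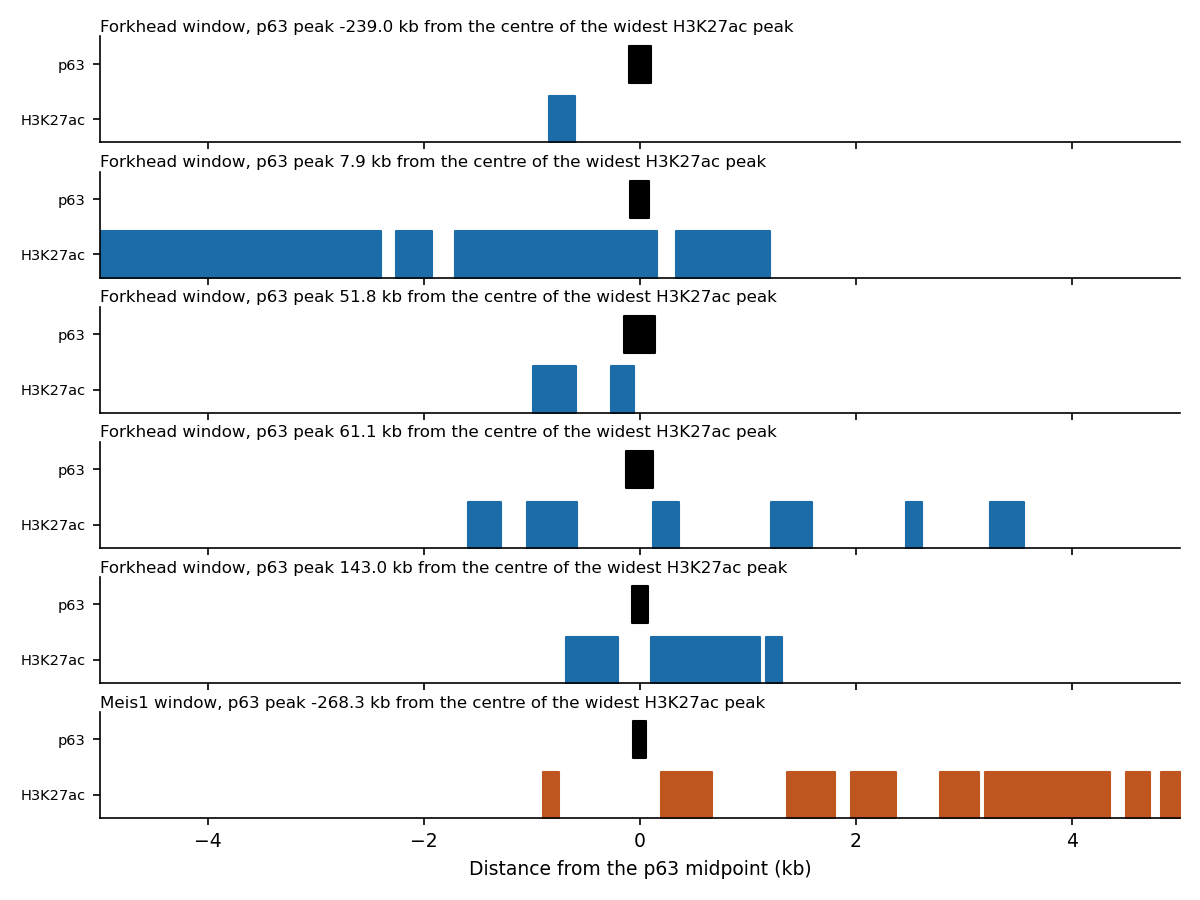
H3K27ac peaks (coloured) and the p63 peak (black) within 5 kb of the midpoint of each of the 6 p63 peaks, in kb, with 5 panels for the forkhead window and 1 for Meis1. The panel at 7.9 kb shows the p63 peak inside the Foxc1 block, and the panels at 143.0 and -268.3 kb show p63 in gaps between H3K27ac peaks.

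Counted by block, 3 of the 4 forkhead clusters of at least 1000 acetylated bases and 1 of the 7 Meis1 clusters contained a p63 peak within their span. Over the genome the share was 11.7% of 7800 such clusters, and 1 of 7 is near it. The number of Meis1 clusters depends on the joining distance of 1000 bases, since gaps of 1024 and 2099 bases part small clusters from larger neighbours. At the forkhead locus the exception was the lowest cluster. At Meis1 the 6 clusters without p63, among them the 3 with the most acetylated bases, lay 117 to 296 kb from the nearest one. Clusters of 10000 acetylated bases or more numbered 58, and 28 of them (48.3%) contained a p63 peak. The Foxc1 block was among those with p63. The Meis1 blocks at the gene start and upstream of it, which also pass this limit, were among those without.

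Set beside the 502 H3K27ac peaks of 2000 bases or more, the 2 widest differed in their distance to p63. The median distance of these peaks was 24.5 kb (quartiles 2.67 and 113 kb), and over all H3K27ac peaks it was 139 kb. The Foxc1 peak, at 2306 bases, had 116 of the 502 nearer to p63 and 385 farther. The Meis1 peak, at 264 kb, had 449 nearer and 52 (10.4%) farther. All 5 Meis1 peaks of this class were 121986 bases or more from p63.

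**Figure D5:**
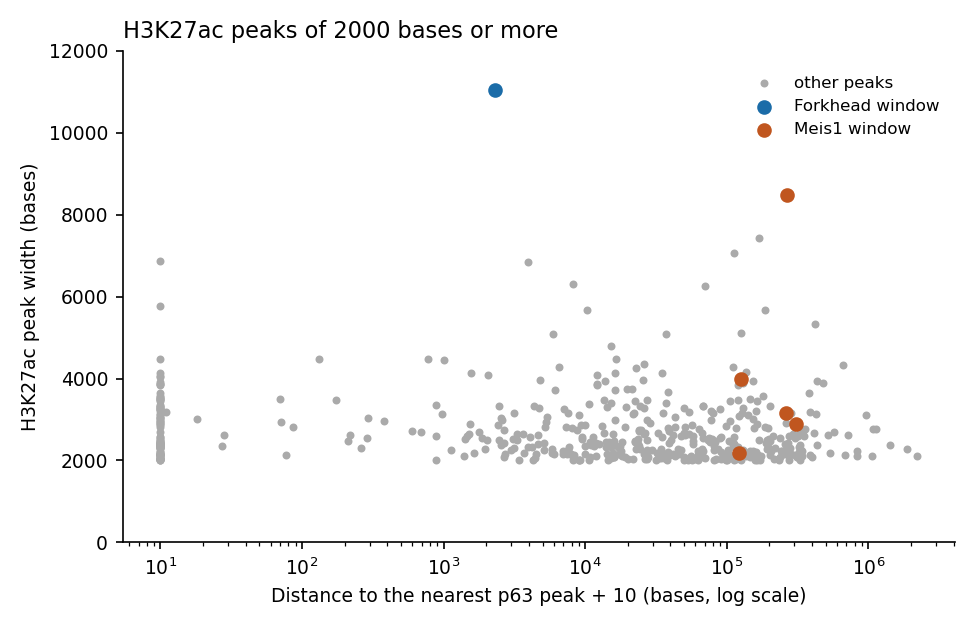
Width in bases against distance to the nearest p63 peak (bases plus 10, log axis) for the 502 H3K27ac peaks of 2000 bases or more, with peaks that share a base with p63 at the left edge. The forkhead peak (blue, 11049 bases) lies 2306 bases from p63, and the 5 Meis1 peaks (orange) all lie to the right of 100 kb.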

How the data were processed

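The deposited files are 2 peak lists of 3 columns (chromosome, start, end), without score, summit or read count. The submitters' processing notes name Bowtie 1.1.1 (a read aligner), MACS2 2.1.0 (which calls peaks) and mm9. Their settings and filters were not given in the sources used here. Each list was called by the authors from 1 ChIP library and its input, per the labels.

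Windows and rounded gene positions came with the definition of the loci. The loci, gene set and comparisons were chosen with earlier results of these data known. Starts are printed counted from 1. Distances are the bases between edges, and tiles run from the first base of each chromosome. Peaks named are the widest of each window, those of 2000 bases or more, every p63 peak and the p63 peak nearest to each widest peak. Other named peaks, the clusters, stretches and intervals between p63 peaks were chosen after their values were seen. Interval functions were tested on simulated data. Tools were scipy 1.17.1, pandas 2.3.3, matplotlib 3.10.9, numpy 2.4.6 and Python 3.11.15. Alternatives covered window membership, the smallest and widest peaks, tile offset, joining distance and how distance is measured.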

Additional observations from a re-analysis of the deposited data

How the results depend on the processing

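Of 40 alternatives to 14 values, 25 moved a value by at most 1.5 times (for tile shares, stayed within the Wilson 95% interval), and the other 15 moved it further. With only H3K27ac peaks of 500 bases or more, acetylated bases fell to 18590 at the forkhead genes and to 38173 at Meis1. Only the Meis1 value stayed within 1.5 times, and Meis1 remained the higher. Joining peaks up to 1000 bases apart left 47 of 100 at Meis1 and 52 of 76 at the forkhead genes. This turned the order of the counts, but the windows differ in length. Per Mb, Meis1 stayed higher, at 94 against 86.7. In windows of 200 kb around the widest peak, 1.02% of tiles held more acetylated bases than the forkhead window and 0.152% more than the Meis1 window, so Meis1 ranked higher in both settings. The span of the block with the widest peak depended on the joining distance. Across gaps up to 10000 bases it was 47073 bases at Foxc1 and 22215 at Meis1. It was 17533 (1000 bases), 23162 (3000) and 142188 (20000) at Foxc1, and 240537 (20000) at Meis1, so which block is longer changed with this setting: at 20000 bases Meis1 was the longer. With p63 peaks wider than the median, there were 3 in the forkhead window and 0 in the Meis1 window, and the widest peak lay 46088 and 853363 bases from p63. Between midpoints the distance at Foxc1 was 7920 bases. Counting only shared bases, 3 forkhead and 0 Meis1 p63 peaks touched H3K27ac. The cause of these shifts is the construction of each alternative. No paired analysis was possible because there was a single library of every kind. Depth is unknown, so a site without a called peak is not shown to lack the mark.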
